A study of Mus musculus with 4 samples.

Results

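The regions described here are dense clusters of OTX2 binding in mouse definitive endoderm (DE) cells made in culture. They were chosen by measured values, namely the positions of the authors' regions. The regions found in DE only and those found in both the primitive streak (PS) stage and DE were pooled. Neighbours separated by 12.5 kb or less from edge to edge were linked into chains, and the regions of every chain of 5 or more were kept. This left 2897 regions in 488 chains, out of 37602 pooled regions and 39615 regions in the 4 lists of the series. Of the 2897, 2227 came from the DE only list and 670 from the PS and DE list.

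The series mapped OTX2 by CUT&RUN, in which an antibody tethers a nuclease to a protein on chromatin and the released DNA is sequenced. The cells were mouse lines of BL6/129 hybrid genotype that carry OTX2-dTAG-EGFP, whose HA tag the antibody recognises. Epiblast stem cells (EpiSCs), grown with NVP (175 nM), FGF2 (12.5 ng/ml) and Activin A (20 ng/ml), were taken to the PS stage with 40 ng/ml Activin A and 3 uM CHIR for 16 h, and then to DE with 100 ng/ml Activin A and 100 nM LDN for 24 h. The libraries described here are 4 of the PS stage, 3 with anti-HA from the lines 7H, 7H1 and 7H2 and 1 with control IgG from 7H2, each from 500000 cells. No value of these libraries was used, only the positions in the lists. Libraries of the EpiSC and DE stages were not among them, although every member is a region listed in DE. The sources used here do not say which libraries made each list, or whether the named lines are separate clones. All groups thus carry the tagged OTX2, and DE cells were sorted for viability. The lists give a position for each region and no height or value per library. The stage labels could not be checked against marker genes, since no expression was measured. So the depth is unknown, replicate error cannot be given, and the comparisons are descriptions with no test. In brackets after a percentage stand 95% Wilson intervals, which cover counting error only, and regions of a chain are not independent.

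OTX2 is a homeodomain factor of the bicoid class, whose preferred DNA word has the core TAATCC. It acts in the epiblast, in the anterior visceral and definitive endoderm, and in the later head and brain. Definitive endoderm arises in the anterior streak under NODAL signals, which Activin A stands in for in culture, and factors such as EOMES, FOXA2, GSC and LHX1 mark that path. Where many regulatory elements of a gene lie close together, they are often described as a clustered or extended enhancer domain. The positions used here show only that OTX2 regions lie close together.

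Some chains reach the start site of a gene of that path, and the sequence under those regions shows what the clusters hold there. The bases below are from RefSeq promoter windows of assembly GRCm38.p6 (mm10), on the strand of the gene and written 5′ to 3′. Each run is the part of a region that lies before the start site and inside the window of 250 bases before and 50 after it. Capitals would mark the OTX core, TAATCC or its complement GGATTA, which these 5 runs do not contain. The runs come from chr15:102004344-102004592 (Krt8, a simple epithelial keratin), chr11:84525535-84525783 (Lhx1, a LIM homeobox factor), chr12:104473360-104473486 (Gsc, a homeobox factor of the organiser), chr9:118478005-118478188 (Eomes, a T-box factor of streak and endoderm) and chr1:34535560-34535647 (Cfc1, an EGF-CFC co-receptor for NODAL).
Krt8: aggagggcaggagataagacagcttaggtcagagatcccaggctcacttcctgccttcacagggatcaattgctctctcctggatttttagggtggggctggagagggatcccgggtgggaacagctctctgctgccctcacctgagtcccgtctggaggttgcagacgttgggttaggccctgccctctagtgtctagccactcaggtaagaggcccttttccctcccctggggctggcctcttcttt
Lhx1: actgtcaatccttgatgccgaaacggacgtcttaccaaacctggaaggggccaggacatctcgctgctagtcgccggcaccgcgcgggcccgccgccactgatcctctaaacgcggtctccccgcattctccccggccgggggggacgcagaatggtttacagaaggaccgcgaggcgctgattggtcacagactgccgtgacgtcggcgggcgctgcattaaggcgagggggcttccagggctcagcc
Gsc: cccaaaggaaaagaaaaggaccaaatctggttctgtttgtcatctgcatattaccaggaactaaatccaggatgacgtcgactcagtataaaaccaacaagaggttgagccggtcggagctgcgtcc
Eomes: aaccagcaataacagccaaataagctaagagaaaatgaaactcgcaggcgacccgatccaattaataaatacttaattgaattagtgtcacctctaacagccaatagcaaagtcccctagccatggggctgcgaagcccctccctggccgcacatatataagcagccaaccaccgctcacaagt
Cfc1: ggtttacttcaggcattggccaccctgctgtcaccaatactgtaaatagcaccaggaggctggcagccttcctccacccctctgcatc

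The Krt8 run belongs to a PS and DE region of 253 bp that ends 2 bp before the start site. The Gsc run belongs to a PS and DE region of 400 bp that ends 124 bp before the start site. The regions at Lhx1 (302 bp), Eomes (206 bp) and Cfc1 (97 bp) reach across the start site; those at Lhx1 and Eomes are DE only and that at Cfc1 is PS and DE. All 5 are members of the chains described below.

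Other chains hold an OTX core at a start site. The next 2 runs are shown because they carry it, in capitals, at the outer end of a gene. Both come from DE only regions. The Mob1b run is the region at chr5:88720686-88720863, before the start of Mob1b, an adaptor of the Hippo kinase pathway. The other region, chr11:3914647-3914792, reaches across the start of Slc35e4, a solute carrier family member. Its run is the part before the start, chr11:3914665-3914792.
Mob1b: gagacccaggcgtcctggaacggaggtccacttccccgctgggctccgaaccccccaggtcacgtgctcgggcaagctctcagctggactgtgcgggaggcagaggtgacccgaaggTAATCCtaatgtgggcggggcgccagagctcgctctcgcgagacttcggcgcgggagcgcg
Slc35e4: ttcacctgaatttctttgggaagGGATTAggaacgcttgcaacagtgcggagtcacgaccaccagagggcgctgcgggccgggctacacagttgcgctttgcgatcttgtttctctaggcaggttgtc

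Most chains were short. Chains of 5 regions made up 274 of the 488, chains of 6 made up 102 and chains of 7 made up 58. The other 54 chains, with 8 to 18 regions, held 509 regions. A chain spanned a median of 20.4 kb (quartiles 14.3 and 27.4, range 2.0 to 67.3 kb), and the chains together covered 10.6 Mb. The bound bases were a small part of that length, with a median of 3.94% of a span, so a chain is a run of narrow regions and not a broad domain. The gap between neighbours had a median of 3.26 kb, and 413 of 2409 neighbour pairs (17.1%) lay within 500 bp of each other.

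The rule set the edges of the clusters. The widest gap inside a chain was 12476 bp and the narrowest gap outside was 12544 bp, and 250 chains had a further pooled region within 25 kb of an end. Just below the size limit, 662 chains had 4 regions, with a median span of 13.6 kb against 17.4 kb in chains of 5. In these chains of 4, 21.5% of regions were PS and DE, against 21.8% in chains of 5.

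**Figure D1:**
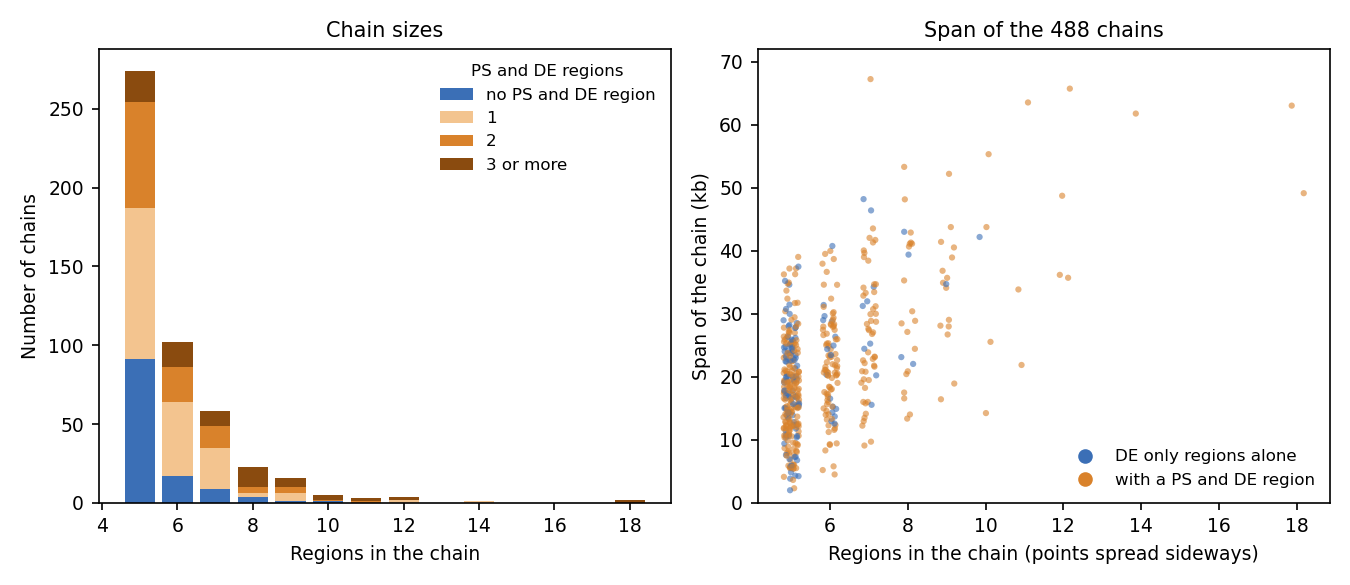
Left, the number of chains (vertical axis) by regions per chain, with colours for how many of the regions are also bound in PS. Right, the span of each chain in kb against its number of regions, 1 point per chain. Chains of 5 are the most frequent (274 of 488), and the 2 chains of 18 span 49.2 and 63.1 kb.

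Regions also bound in PS made up a larger part of the clusters than of the other DE regions. Of the 2897 members, 23.1% were PS and DE (21.6 to 24.7), against 15.8% (15.4 to 16.2) of the 34705 pooled regions outside the clusters. Seen from the other side, 10.9% of all PS and DE regions were members, against 7.08% of DE only regions. The percentage was higher in longer chains, from 13.9% for regions with no neighbour within reach, 16.7% in pairs and 19.2% in chains of 3 or 4 to 22.3% in chains of 5 to 7 and 26.9% (23.2 to 30.9) in chains of 8 or more. Members had the higher percentage on 20 of the 20 chromosomes with chains, although on chromosomes 5 and 11 the gap was small (19.5% against 18.5%, and 15.9% against 15.6%).

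**Figure D2:**
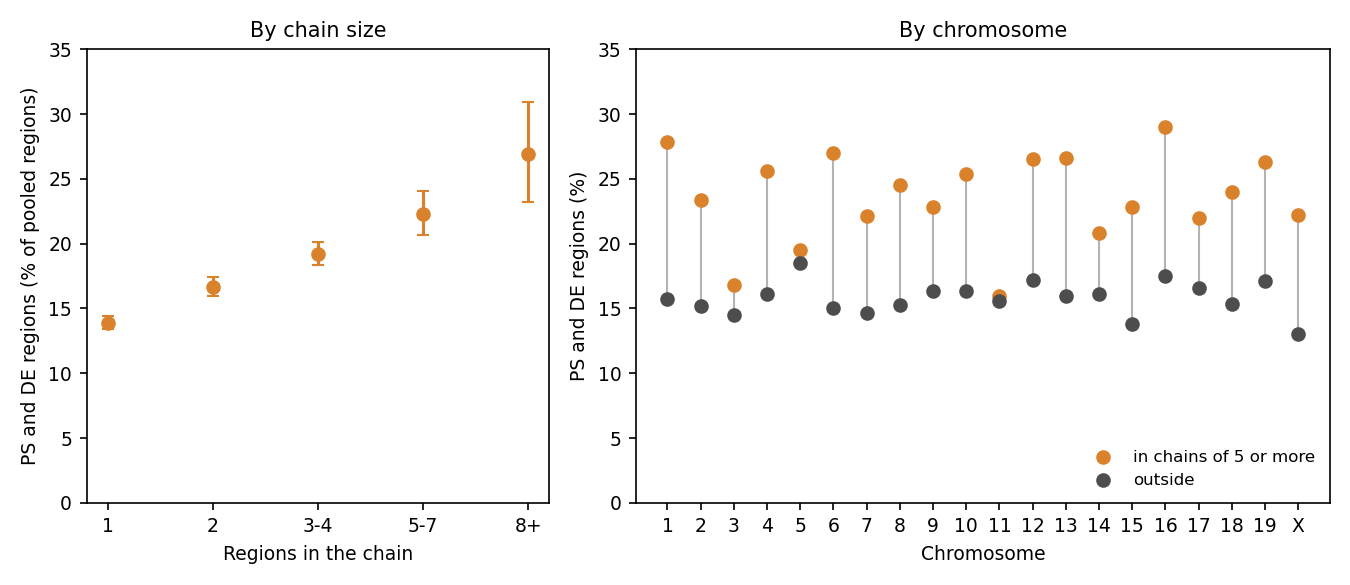
Left, the percentage of pooled regions that are also bound in PS, by the number of regions in the chain, with 95% Wilson intervals. Right, the same percentage per chromosome for members (orange) and other pooled regions (grey). The values run from 13.9% for unlinked regions to 26.9% in chains of 8 or more, and the orange point is the higher on each of the 20 chromosomes.

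Most chains mixed the lists. At least 1 PS and DE region lay in 365 of the 488 chains (74.8%), most often 1 (179 chains) or 2 (113 chains). The remaining 123 chains were built of DE only regions alone. PS and DE regions were the majority in 32 chains and the only kind in 2, a chain of 6 at Cst3, which encodes the protease inhibitor cystatin C, and a chain of 5 whose nearest gene is Agpat3, a lipid acyltransferase gene. A PS and DE region stood at either end of its chain in 30.3% of cases, and a DE only region in 34.7%.

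PS and DE regions also lay closer to each other inside the chains. The median gap was 1427.5 bp between 2 PS and DE neighbours (182 pairs), 3443 bp in mixed pairs (773) and 3468.5 bp between 2 DE only neighbours (1454). Of the PS and DE pairs, 30.2% were within 500 bp, against 15.8% of the DE only pairs. The PS and DE list holds fragments as narrow as 2 bp while the narrowest DE only region has 62 bp, and whether the way stages were matched shortened these gaps was not tested. With regions within 500 bp merged, 23.0% of members were PS and DE, against 16.4% of other regions. A merged region was counted as PS and DE if any of its parts was. That can raise the percentage where merging is frequent, so these 2 values do not answer the question.

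DE only members were no wider than DE only regions elsewhere, with a median of 119 bp in both. PS and DE members had a median width of 133.5 bp (quartiles 95.25 and 194), against 121 bp (92 and 172) outside the clusters. In chains of 8 or more the median was 144 bp. Regions of 300 bp or more made up 6.42% of PS and DE members and 3.74% of other PS and DE regions, and 4.94% and 3.63% of DE only regions.

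The other 2 lists of the series were not used to build the chains. Of the 1634 regions found in PS only, 31 lay inside a chain, in 29 chains. That is 2.92 per Mb of chain span, against 0.607 per Mb between the outermost genes of the chromosomes, while chains cover 0.395% of that length. Chains of 3 or 4 had 2.22 PS only regions per Mb and chains of 2 had 1.85 per Mb. The list shared by EPI (a stage label that the lists do not spell out) and PS placed 3 of its 379 regions in chains.

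PS only regions lay in several chains over endoderm and streak genes. Lists of markers of these stages name 12 of the genes overlapped, each in a chain of its own, and 4 of these 12 chains (33.3%) held a PS only region, against 5.94% of all chains. This difference was not tested. The 4 genes were Foxa2 (chr2:148041583-148041739), Gsc (chr12:104476090-104476237), Eomes (chr9:118489082-118489181) and Cyp26a1 (chr19:37703684-37703894). At these genes OTX2 was thus listed at some positions in PS alone, at others in PS and DE and at others in DE alone, within 1 chain. Among the 12 chains, 11 held a PS and DE region, and 25 of their 80 regions (31.3%) were of that list. The percentage was much the same, 31.6% (49 of 155), over all 23 chains with a gene of any list, these 12 included.

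Member regions lay inside genes more often than other regions and close to start sites less often. A protein-coding gene was overlapped by 369 chains (75.6%), exactly 1 gene by 298 of them. Of all chains, 230 (47.1%) crossed or held an end of a gene, 139 (28.5%) lay wholly inside a gene and 119 (24.4%) touched no protein-coding gene. These shares of chains have no background, since other stretches of such length were not counted. The midpoint of 52.4% of members (50.6 to 54.2) was inside a gene, against 46.9% (46.4 to 47.4) of other regions. Distance to a start site was counted without chromosome 18, which left 2801 members and 33580 other regions. Of these members only 9.10% (8.09 to 10.2) lay within 1 kb of a start site, against 11.8% (11.5 to 12.2) of the others. In chains of 8 or more these values were 57.2% and 7.62%.

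Across the genome, 469 of 21883 protein-coding genes had their span overlapped by a chain, which is 2.14%, and 1117 (5.10%) lay within 50 kb of a chain. The percentage overlapped depends on gene length: it was 1.55% for genes up to 10 kb, 1.62% for 10 to 50 kb, 3.34% for 50 to 200 kb and 6.88% for longer genes. These values are the background for the gene lists that follow.

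With the rule as given, definitive endoderm genes had the highest share of the 15 lists compared. A chain overlapped 8 of its 18 genes (44.4%), and 9 lay within 50 kb (50%). This share depended on the settings: 4 of the 18 (22.2%) held the midpoint of a member, and with a largest gap of 5 kb 2 of 18 (11.1%) were overlapped, Lhx1 and Cldn6, the same number as in the epithelial adhesion and keratin list. Over all genes those settings gave 1.88% and 0.388%. The 8 were the transcription factor genes Foxa1, Foxa2, Gata6, Eomes, Gsc and Lhx1, the tight junction gene Cldn6 and the keratin gene Krt18, and the ninth was Krt8. These genes are short, with a median length of 6.95 kb over the list. The primitive streak list had 8 of 22 genes overlapped (36.4%), 3 by the midpoint and 1 with the 5 kb gap. Of the 8, Foxa2, Eomes, Gsc and Lhx1 are on both lists. Its other 4 were Mixl1, a homeobox gene of the streak, Fgf8, a growth factor gene, Lefty2, which encodes a NODAL antagonist, and Cyp26a1, whose enzyme breaks down retinoic acid. These lists were drawn up with earlier results of these data known, so their counts are a description.

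The control lists and the lists of other tissues had lower shares than the definitive endoderm and primitive streak lists. The neurectoderm (18 genes) and lymphocyte (16) lists had 0 genes overlapped or within 50 kb. Beside 2.14% of all genes overlapped, no difference can be read from 0 in lists this short. The neurectoderm count also depended on the settings. It was 2 of 18 (11.1%) with 4 regions or more, against 4.59% of all genes. With a largest gap of 25 kb it was 4 of 18 (22.2%), against 8.19%. The housekeeping list had 1 of 22, Actb, in a chain that also overlaps Fbxl18. The extraembryonic endoderm list had Gata6 and Pdgfra, 2 of 16 (12.5%), and the mesoderm list had Foxc1 and Pdgfra, 2 of 18 (11.1%). Over all lists, 23 of 241 distinct genes were overlapped and 40 were within 50 kb.

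**Figure D3:**
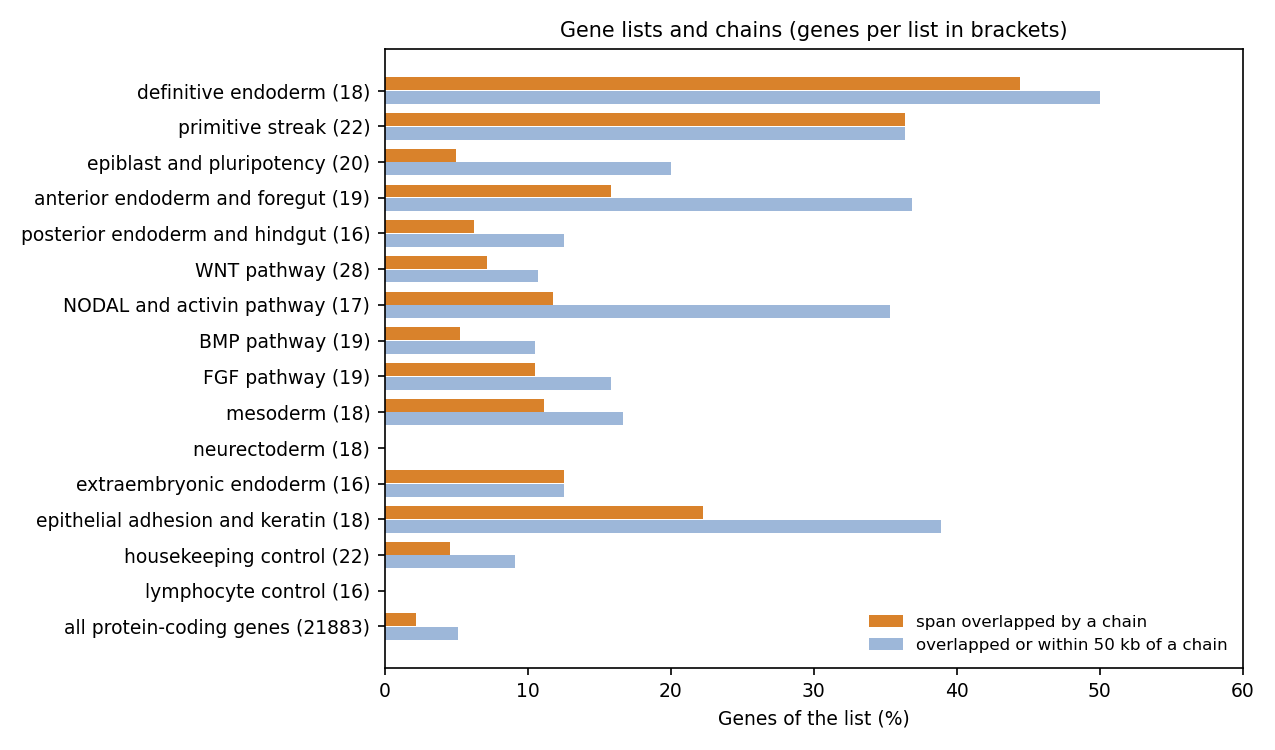
Percentage of the genes of each list whose span is overlapped by a chain (orange) or lies within 50 kb of one (blue), with the list size in brackets and all protein-coding genes in the last row. The definitive endoderm (44.4%) and primitive streak (36.4%) lists are the highest for overlap, against 2.14% of all genes.

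Signalling pathways were touched at a few members. Of the NODAL and activin list, the co-receptor gene Cfc1 and the antagonist gene Lefty2 were overlapped (2 of 17), and 6 lay within 50 kb, among them the receptor gene Acvr1b (7.33 kb), the protease gene Furin (17.4 kb), Foxh1, a partner of SMAD proteins (18.8 kb), and the antagonist gene Lefty1 (30.7 kb). Of the WNT list, the receptor gene Fzd8 and the nuclear factor gene Lef1 were overlapped (2 of 28), and the antagonist gene Sfrp5 lay at 11.4 kb. The BMP list had the ligand gene Bmp7 (1 of 19) and the FGF list had the ligand gene Fgf8 and the receptor gene Fgfr3 (2 of 19), with Fgf2 at 4.46 kb. Of the anterior endoderm and foregut list 3 of 19 genes were overlapped and 7 lay within 50 kb, and of the posterior list 1 and 2 of 16. Of the epiblast and pluripotency list 4 of 20 genes lay within 50 kb of a chain or were overlapped. The epithelial adhesion and keratin list had 4 of 18, the cadherin genes Cdh1 and Cdh2 together with Cldn6 and Krt18.

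Foxa2, the forkhead factor gene of the endoderm, lay in the middle of a chain of 8 regions over 42.9 kb (chr2:148023273-148066175). Its 4 PS and DE regions were 197, 99, 25 and 280 bp wide and its 4 DE only regions 69, 89, 103 and 216 bp. A PS and DE region, chr2:148046349-148046447, lay inside the gene, 4 regions lay upstream of it and 3 downstream. The PS only region of 157 bp lay 18.3 kb from the first base of the chain, between the gene and the PS and DE region at chr2:148040770-148040966. PS and DE regions were thus found on both sides of the gene and within it.

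Lhx1 had 9 regions over 26.7 kb (chr11:84513524-84540245), of which 8 were upstream of the gene and 1 downstream. The region of 302 bp at the start site was followed after 0.249 kb by a PS and DE region of 68 bp. Farther upstream, a DE only region of 373 bp and a PS and DE region of 167 bp lay 0.179 kb apart, and 4 DE only regions of 94 to 201 bp followed. So DE only regions flanked both PS and DE positions of this chain. The far end of the chain also touched Aatf, a gene of the neighbouring locus, on its downstream side.

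Gsc had 6 regions over 39.5 kb (chr12:104466661-104506173) with a widest gap of 12.4 kb, just under the limit. Upstream of the gene lay 3 PS and DE regions of 400, 377 and 323 bp and, farther out, DE only regions of 272 and 113 bp. A DE only region of 77 bp lay downstream. The PS only region of 148 bp lay between the first and second PS and DE regions. The 3 PS and DE regions were each over 300 bp, a width reached by 6.42% of PS and DE members.

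Eomes had 5 regions in 11.9 kb (chr9:118478005-118489902). A DE only region covered the start site used above, a DE only region of 146 bp lay inside the gene, and 3 lay downstream: PS and DE regions of 179 and 252 bp and a DE only region of 346 bp. The PS only region of 100 bp was between the last 2. Here the PS-bound positions were all past the end of the gene.

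Foxa1, the second forkhead gene of the list, had 6 regions in 17.3 kb (chr12:57538387-57555710) with a single PS and DE region, of 86 bp, downstream of the gene. That chain also overlaps Ttc6. Gata6, a zinc finger factor gene of endoderm, had 6 regions as well, with 1 PS and DE region of 84 bp at the lower end of the chain, the farthest from the gene. The lower end of the gene was covered by a DE only region of 324 bp and 3 regions had their midpoints inside the gene. Cldn6, a claudin of early epithelia, sat at the edge of a chain of 5 DE only regions in 5.91 kb that also overlaps Tnfrsf12a, Hcfc1r1 and Thoc6. Chains with few or no PS-bound regions thus occurred among endoderm genes as well.

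Krt8 and Krt18 encode the keratin pair of simple epithelia, and a chain of 12 regions ran from the start of Krt8 across Krt18 (chr15:102004344-102040530, 36.2 kb). Next to Krt8 lay 3 PS and DE regions of 253, 415 and 138 bp, the last of them 1.93 kb from the first base of the chain. Then came 5 DE only regions of 69 to 336 bp, and 2 more PS and DE regions of 54 and 128 bp lay upstream of Krt18. The last 2, of 165 and 107 bp, were downstream of Krt18 and DE only. PS-bound regions thus sat beside each of the keratin genes, with DE only regions between and beyond them.

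Among the streak genes, Fgf8 had 8 regions in 13.4 kb (chr19:45734326-45747694) and none with a midpoint inside the gene. Its 3 PS and DE regions of 108, 72 and 42 bp lay 0.099 and 0.149 kb apart at the lower side, and 4 DE only regions of 153 to 286 bp lay at the higher side. Mixl1 and Lefty2 each had 5 regions with 1 PS and DE region, of 161 and 194 bp. Cyp26a1 had a DE only region inside the gene and 4 regions downstream, ending with 2 PS and DE regions of 204 and 131 bp. The chains over Mixl1, Lefty2 and Cyp26a1 are at the size limit of 5. With regions within 500 bp merged, chains were still found over Fgf8, Mixl1 and Lefty2 but not over Cyp26a1. The same setting also left no chain over Gata6, Cldn6 and Fzd8.

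**Figure D4:**
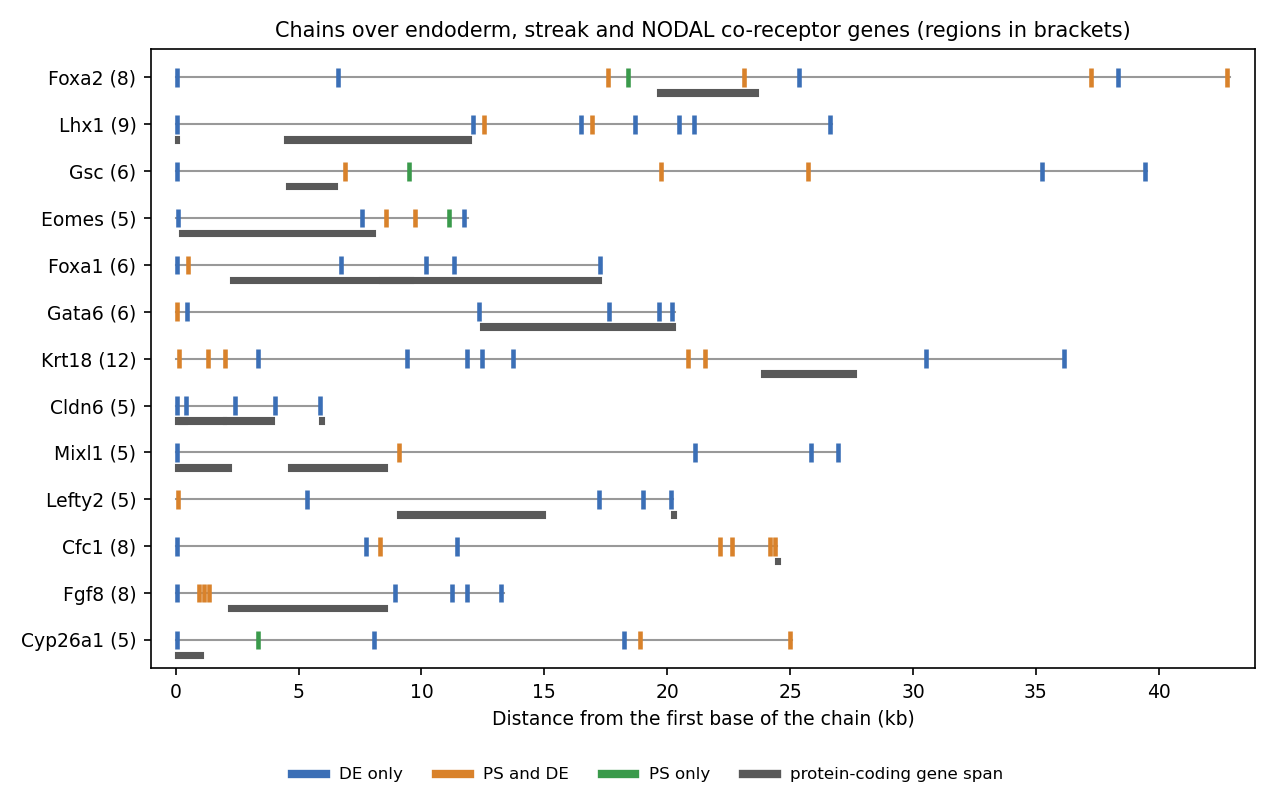
Positions of the regions of 13 chains over endoderm, streak and NODAL co-receptor genes, in kb from the first base of each chain, with the gene spans as grey bars below. Foxa2, Gsc, Eomes and Cyp26a1 each show a PS only region (green) among DE only (blue) and PS and DE (orange) regions.

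Cfc1 had the most PS-bound chain among the pathway genes, with 5 PS and DE regions among 8 in 24.4 kb (chr1:34511211-34535656). All 8 had their midpoints upstream of the gene. The 4 nearest to its start, of 286, 129, 83 and 97 bp, were PS and DE and began 22.0 to 24.3 kb from the first base of the chain. Bmp7 had 9 regions in 29.0 kb, 8 of them inside the gene, with 4 PS and DE regions of 187, 81, 85 and 311 bp next to each other. Fzd8 had 5 regions in 5.72 kb, 2 of them PS and DE, of 186 and 123 bp. Lef1, by contrast, had 8 regions over 43.0 kb, all inside the gene and all DE only, of 97 to 174 bp. The chain over Fgfr3, with 5 regions, was likewise DE only.

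The strand of an overlapped list gene was given for 13 of the 23. Of the 92 regions of those 13 chains, 56 had their midpoint upstream of the gene, 17 inside it and 19 downstream. The same count was not made for other chains, so these values have no background. Regions upstream of Krt18 include those beside Krt8, and the Cldn6 chain also overlaps Tnfrsf12a, Hcfc1r1 and Thoc6. All regions were upstream at Cfc1 (8) and Cldn6 (5), and most were at Krt18 (10 of 12), Lhx1 (8 of 9), Gsc (5 of 6) and Pdgfra (5 of 7), the last a receptor gene of mesoderm and extraembryonic endoderm. Lef1 and Cyp26a1 had 0 upstream.

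The 2 chains with the most regions, 18 each, lay inside genes that are on none of the lists. Gse1, which encodes a protein of histone deacetylase complexes, held 18 regions over 63.1 kb (chr8:120475609-120538660), with 5 PS and DE regions of 129 to 371 bp. Of these, 3 were consecutive and the other 2 were the first and last regions of the chain. Aff1, which encodes a scaffold of the super elongation complex, held 18 over 49.2 kb (chr5:103711608-103760758) with 4 PS and DE regions of 68 to 170 bp and 1 PS only region. Both genes held a second chain, for 25 regions in Gse1 and 26 in Aff1. They are also long, 352.9 and 163.0 kb.

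Rarb, which encodes a retinoic acid receptor, had 14 regions over 61.8 kb (chr14:16546697-16608488). A single PS and DE region, of 112 bp, stood near the end of the chain, and the DE only regions included a pair of 720 and 602 bp that lay 0.174 kb apart. The widest member region of the DE only list was the one of 720 bp. Rarb is 651.5 kb long and held 19 regions in 2 chains. Other large chains lay over Lmx1b, a LIM homeobox factor gene (12 regions, 65.8 kb), Ddc, an amino acid decarboxylase gene (12, 35.7 kb), Pax7, a paired box factor gene (11, 33.9 kb), Robo1, an axon guidance receptor gene (11, 63.6 kb), and Asic4, an ion channel family gene (11, 21.9 kb). Each of these 5 held 1 to 4 PS and DE regions. A chain of 12 regions in 48.7 kb touched no protein-coding gene, and its nearest was Mrm1, 62.9 kb away.

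**Figure D5:**
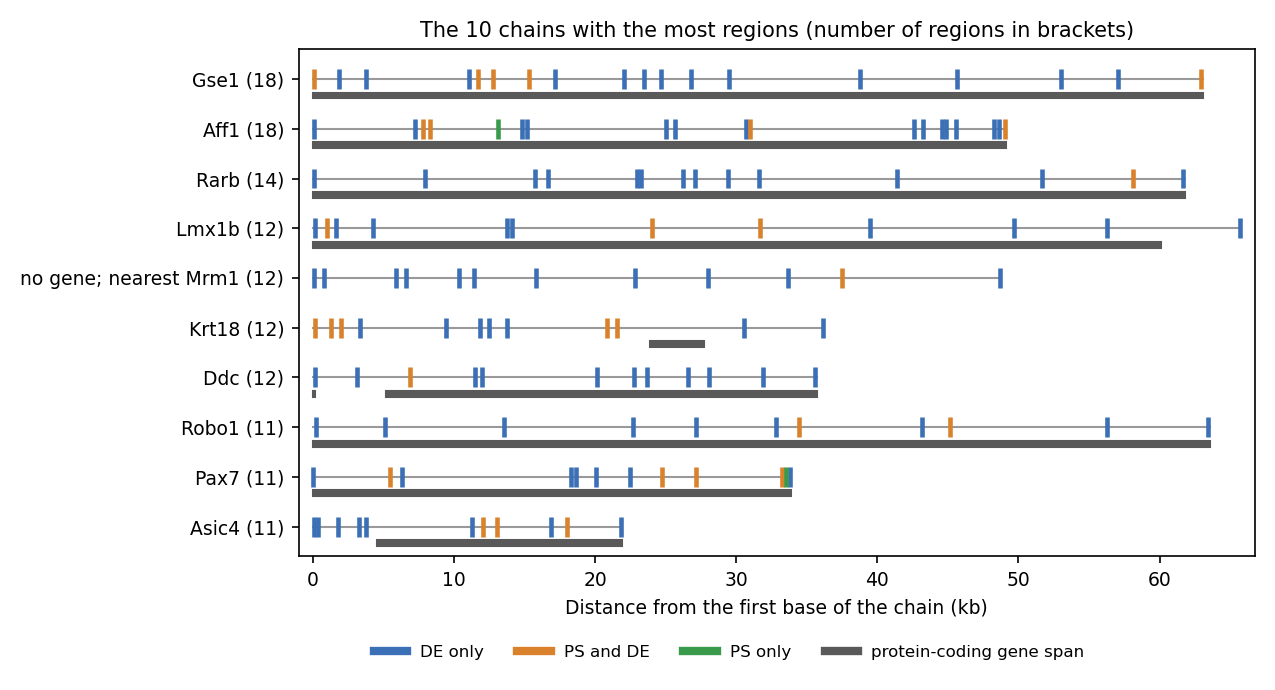
Positions of the regions of the 10 chains with the most regions, in kb from the first base of each chain, with gene spans as grey bars. The chains of 18 at Gse1 and Aff1 lie wholly inside those genes, and the chain near Mrm1 has no protein-coding gene under it.

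The next 5 chains were named for their spans. The longest of all, 67.3 kb with 7 regions, covered 6 genes, among them Nos3, the endothelial nitric oxide synthase gene, the kinase gene Cdk5 and the anion exchanger gene Slc4a2. The others lay over the transcription factor gene Irf1 (10 regions, 55.3 kb), the potassium channel gene Kcnj10 (8, 53.3 kb), Zfp385a with the integrin gene Itga5 (9, 52.2 kb), and Mob1b (7, 48.2 kb, all members DE only). PS only regions, which are not members, also lay within the spans at Irf1, Zfp385a and Mob1b. Length and number of regions therefore ranked the chains differently. The densest chain by contrast packed 5 DE only regions into 1998 bp, 53.8 kb from Ubr2, and the next packed 5 into 2.31 kb inside Ephb1, an ephrin receptor gene.

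Chains made up mainly of PS-bound regions were found at other genes. Lrig3, a gene for a membrane protein with leucine-rich repeats, had 7 PS and DE regions of 98 to 284 bp among 8 in 27.1 kb (chr10:125941493-125968622). Gdi2, a regulator of RAB proteins, had 6 of 7 in 18.2 kb, and Ndst1, a heparan sulfate modifying enzyme gene, had 6 of 10 in 43.8 kb. The 6 regions at Cst3, of 98 to 167 bp, lay in 4.51 kb (chr2:148874938-148879443), with no gap above 1.37 kb. None of these 4 genes is on a list compared above.

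Otx2 itself had a chain nearby, 33.2 kb from the gene on its upstream side (chr14:48700872-48709966). Its 7 regions lay in 9.10 kb and were wide: 6 DE only regions of 417, 307, 247, 259, 289 and 74 bp and a PS and DE region of 271 bp. The gaps were 0.138, 3.57, 2.55, 0.448, 0.337 and 0.195 kb. Bound bases made up 20.5% of the span, against the median of 3.94% over all chains. The chain overlapped no protein-coding gene but did overlap the non-coding gene Otx2os1. It was among the 22 chains still found when regions under 150 bp were left out, but no chain was left there when regions within 500 bp were merged or when 8 regions were required.

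Start sites were a small part of the clusters. In 126 chains, 164 member regions overlapped a promoter window of 300 bases, and 104 lay wholly inside. At outer gene ends, the midpoint of 76 such regions lay at a median of 78 bp before the start, and 69 of them (90.8%) lay before it; the windows themselves reach farther before the start than after it. The OTX core TAATCC, on either strand, was in 11 of the 104 whole regions (10.6%) and in 77 of 1962 (3.92%) whole regions outside the clusters. Over all regions that overlapped a window, the part inside it held the core in 12 of 164 members (7.32%). Outside the clusters it did so in 112 of 2856 (3.92%). Of the 300-base windows with a member, 17 of 173 (9.83%, 6.23 to 15.2) held the core, against 6.54% (5.73 to 7.44) of windows with another pooled region and 6.42% of all windows. The same letters in reverse order, CCTAAT, were also in 9.83% of windows with a member and in 6.60% of all windows, so at the scale of the window the core did not stand apart from a word of equal composition. The reversed word was not counted in the regions themselves.

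Other words were counted in the same windows. In windows with a member, windows with another pooled region and all windows, in this order, AGATAA, the GATA factor word, was in 9.83%, 5.73% and 9.65%. The forkhead word TGTTTAC was in 4.05%, 2.46% and 3.0%. The T-box word AGGTGTG was in 5.78%, 4.30% and 5.32%, and the SOX word CATTGT in 7.51%, 6.16% and 11.0%. The words TAATTA of homeodomain factors (2.31%, 2.43% and 4.53%), CTTTGAT of TCF/LEF factors (1.16%, 2.89% and 3.22%) and TGANTCA of AP-1 (2.89%, 4.58% and 6.99%) were in 4, 2 and 5 of the 173 member windows. The median GC content of the windows was 61.0%, 62.0% and 56.3%, and its part in these values was not tested. Promoters are a small part of the member regions, and the sequence of the rest was not analysed here.

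A chain of 6 regions at Ehd1, an endocytic recycling gene (chr19:6262371-6284689, 22.3 kb), held a pair of microRNA genes known from endoderm-derived epithelia, Mir194-2 and Mir192. Their mature products are printed from RefSeq with the seed, bases 2 to 8, in capitals. The seeds differ.
mmu-miR-194-5p: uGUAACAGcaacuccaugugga
mmu-miR-192-5p: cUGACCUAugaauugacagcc

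The nearest member, a DE only region at chr19:6262371-6262436, lay 2.21 kb from Mir194-2 and 2.41 kb from Mir192. In all, 10 of 1228 microRNA genes (0.814%) were overlapped, by 9 chains, against 2.14% of protein-coding genes. The others were Mir1192, Mir1941, Mir3064, Mir378a, Mir688, Mir6963, Mir7671 and Mir8120, and member regions overlapped Mir688 and Mir8120 themselves. The pair at Ehd1 was picked from the 10 after their values were seen.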

How the data were processed

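The authors deposited 4 lists of regions from OTX2 CUT&RUN, with chromosome, start and end in mm10 and no score or other value per library; the unit of each column is a position. The submitters' processing notes name, with no order or settings, MACS2 2.2.6, bedtools 2.30, Picard 2.26.10, SAMtools 1.14 and Bowtie2 2.3.5.1. How peaks were thresholded, IgG used and stages matched is not given in the sources used here.

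Starts were converted to count from 1. Chains were built with Python 3.11.15 and pandas 2.3.3, after the code was tested on simulated regions. Genes, promoter windows and microRNAs came from RefSeq tables of GRCm38.p6; windows were given for 17491 of 21883 protein-coding genes and no genome was used. A gene was overlapped where its span shared a base with the chain span. Chains were named by rule: the 10 with the most regions, then the 5 longest and the 5 with most PS and DE regions among the rest, and all over a list gene. Genes outside this rule, among them Otx2, Ephb1 and Ehd1, were chosen after their values were seen. The members and the 15 gene lists were chosen with earlier results of these data known. Some genes that the naming rule covers are not reported here. No test was run.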

Additional observations from a re-analysis of the deposited data

How the results depend on the processing

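The members depend on the settings of the chains. With a largest gap of 5 kb there were 107 chains with 593 members, and with 25 kb 1283 chains with 8424. With at least 4 regions there were 1150 chains with 5545 members, and with at least 8 there were 54 with 509. With regions within 500 bp merged there were 327 chains with 1893 members. With regions under 150 bp left out, 22 chains with 120 members were found.

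The percentage of PS and DE members was 26.8% at 5 kb, 20.5% at 25 kb, 26.9% with 8 or more regions and 30% without narrow regions. It was above that of other regions in 6 of 6 chain settings. Among them is merging, in which any PS and DE part made the merged region PS and DE. The median span was 8.90 kb at 5 kb, 44.1 kb at 25 kb and 35.5 kb with 8 or more. Chains with a PS only region made up 2.80% at 5 kb, 8.89% at 25 kb, 9.26% with 8 or more and 9.09% without narrow regions. Chains over a protein-coding gene made up 82.2% at 25 kb, 69.9% with 4 or more, 88.9% with 8 or more and 81.8% without narrow regions.

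Of the 241 list genes, 7 were overlapped at 5 kb and 58 at 25 kb, where 0.388% and 8.19% of all protein-coding genes were. Within 50 kb of a chain lay 40, and 15 held the midpoint of a member. Of 40 such recalculations, 30 moved the value. In the other 10, percentages stayed within the reported interval and counts and spans within 1.5 times the reported value, the 327 merged chains among them. In settings tried after seeing the data, the definitive endoderm list had 2 genes overlapped at 5 kb, 3 with 8 or more regions and 1 without narrow regions. It had 4 by the midpoint, 6 with merging, 8 with 4 or more regions and 11 at 25 kb, against 8 with the rule as given. The primitive streak list had 1, 3, 1, 3, 7, 10 and 10 in the same order, also against 8. Over all protein-coding genes the shares in that order were 0.388%, 0.265%, 0.0868%, 1.88%, 1.51%, 4.59% and 8.19%, against 2.14%. Under 4 stricter settings (5 kb, merged, 150 bp and 8 regions), 8 chains were found in each, those over Aff1, Rarb, Ddc, Lhx1, Bmp7, Tle3, Ypel2 and Fbxo16, and 124 chains in none, among them those at Gata6 and Cyp26a1. A planned count of motifs in the central 100 bp of regions was not run because no genome was used. Depth is unknown, so regions missed in a stage cannot be told apart from regions not bound.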

Other observations

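Chains without a protein-coding gene were of ordinary make-up. Of the 119, 47 overlapped a long non-coding RNA gene, and 24.6% of their regions were PS and DE. Their nearest protein-coding gene lay at a median of 27.6 kb, and 15 chains were over 100 kb away from any protein-coding gene. The most remote, 430 kb from Zfp804b, spanned 11.8 kb. Over all chains, 191 of 12727 long non-coding RNA genes (1.5%) were overlapped. Those with a name beside their neighbour included Lhx1os, Gata6os, Foxo6os and Otx2os1.

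Gene families were chosen after the chains were seen, and their counts stand beside 2.14% of all protein-coding genes. Of the forkhead genes 5 of 44 were overlapped (Foxa1, Foxa2, Foxc1, Foxn3 and Foxo6) and 10 lay within 50 kb. The corepressor genes Tle3 and Tle4 were 2 of 7 in the TLE family. Olfactory receptor genes had 0 of 1110. Zinc finger genes named Zfp, with 6 of 397 (1.51%), were near that background, and no difference from it can be read from the Hox (0 of 39) and WNT ligand (0 of 19) genes.

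Chains also lay next to each other. In 33 cases neighbouring chains were within 100 kb, the closest pair 12.6 kb apart, just over the linking limit. A second chain within the same gene was found for 13 genes, among them Pax7 (16 regions in all), Auts2 (15) and Prdm1 (12), which encodes a transcriptional repressor of early endoderm and germ cells. Chromosome 19 had the highest percentage of its pooled regions in chains (11.5%) and chromosome X the lowest of those with chains (2.21%, 3 chains).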
